A study of Mus musculus with 17 samples.

Results

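H3K9 methylation and heterochromatin factors were examined as 10 genes of the 23891 gene symbols in the series: the methyltransferases Setdb1, Suv39h1, Suv39h2, Ehmt1 and Ehmt2, their partners Atf7ip and Trim28, and the HP1 genes Cbx1, Cbx3 and Cbx5. They were chosen by symbol, and each was represented by the RefSeq transcript with the highest mean FPKM (a count of sequenced fragments scaled to transcript length and library size) over the 17 samples. The 10 genes have 22 RefSeq transcripts, and all 10 were measured in all 17 samples with no value marked as failed.

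Methylation of histone H3 at lysine 9 is a mark of transcriptionally silent chromatin in mammals. SUV39H1 and SUV39H2 place the trimethyl form at pericentromeric repeats, SETDB1 places it at retrotransposons and imprinted regions where the scaffold protein TRIM28 (KAP1) is brought to DNA by KRAB zinc-finger proteins, and EHMT1 (GLP) and EHMT2 (G9a) act as a dimer that places the dimethyl form in euchromatin. The HP1 proteins encoded by Cbx5 (HP1 alpha), Cbx1 (HP1 beta) and Cbx3 (HP1 gamma) bind the methylated lysine. In the male germ line Suv39h2 is known for its expression in testis, and loss of both Suv39h genes impairs spermatogenesis.

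RNA was sequenced from cultured mouse cells to compare spermatogonial stem and progenitor cells (SSC, 4 lines) with the multipotent adult spermatogonial-derived cells (MASC, 6 lines) that arise from them spontaneously in culture and with embryonic stem cells (ESC, 2 lines), induced pluripotent stem cells (iPS, 2 lines), haematopoietic stem and progenitor cultures (HSC, 2 samples) and embryonic fibroblasts (MEF, 1 sample). The SSC lines came from mice more than 3 months old and were grown on MEF feeders in medium with GDNF, bFGF and EGF; SSC.1 and SSC.2 are Oct4-GFP, SSC.3 is C57Bl/6J and SSC.4 is 129mix. MASC.1 and MASC.2 are Oct4-GFP, MASC.3 and MASC.4 are 129mix and MASC.5 and MASC.6 are Gt(ROSA26)Sor-lacZ, all picked as colonies and grown on MEF feeders with LIF. ESC.1 is Oct4-GFP and ESC.2 is 129mix, in the same medium. The iPS lines (129mix) were made from E13.5 tetO-4F2A, H3.3B-HA fibroblasts with doxycycline, the MEF sample came from E13.5 H3.3B-HA embryos, and the HSC samples were C57Bl/6J Lin- bone marrow cells on E4ORF1-HUVEC feeders. Strain is therefore only partly balanced across cell types, and SSC, MASC, ESC and iPS cultures all had MEF feeders. The study's methods give a step on gelatin to remove leftover feeders from SSC before collection. They give none for MASC, ESC or iPS lines. A line is taken as the unit of replication, and p-values measure the spread between these lines only. The study states that its 6 MASC and 2 ESC lines were subcloned. Whether the 2 MASC lines of a strain arose from separate conversions is not stated in its methods. If they did not, they are not independent.

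Library and marker facts bear on the values below. Coverage at 1 FPKM was between 1.26 and 3.23 reads per base. All 7 pluripotency markers were higher in MASC than in SSC lines, with a summed level of 2785 to 4363 FPKM against 12.8 to 155, and 7 of 9 spermatogonial markers were lower and 1 (Etv5) higher. Of 4 meiosis markers Prdm9 and Spo11 were lower. Summed testis somatic markers were at 22.6 to 27.3 FPKM in SSC and 5.58 to 12.1 in MASC lines, and 2 of those 6, Wt1 (means of 14.1 and 1.91 FPKM, limma adjusted p = 0.000462) and Sox9, were lower. The part of other testis cells or of differentiating germ cells in the members' differences was not tested. Summed fibroblast markers, which feeder cells would carry, ran from 3.40 to 726 FPKM in SSC and from 15.7 to 842 FPKM in MASC lines, against 5182 in MEF. The HSC samples carried all 6 blood progenitor markers, but their 7 mast cell markers summed to 38436 and 63047 FPKM against at most 46.9 in any other sample. Libraries also differed in the balance between AT-rich and GC-rich genes, measured as the median log2(FPKM + 1) of the 1681 genes lowest in GC content minus that of the 1681 highest, among 8402 protein-coding genes. This balance was between -0.19 and -1.09 in SSC.1, SSC.3, MASC.1, MASC.2, ESC.1, both HSC samples and MEF, which are called AT-poor below, and between 0.09 and 0.46 in the other 9. The transcripts of Cbx3, Cbx5 and Suv39h2 are among the AT-rich genes (41.1%, 42.6% and 43.0% GC), and those of Ehmt2 and Trim28 among the GC-rich (60.8% and 59.6%).

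Sequences were taken for the members with the firmest differences. The first is an alternative exon of Ehmt2, shown because the results below turn on it. The 4 RefSeq transcripts of Ehmt2 fall into 2 pairs, 1 from each of 2 starts, and within each pair the lengths differ by 102 bases (3858 and 3756, 4022 and 3920). In the GENCODE vM1 annotation of mm9 exactly 1 exon of 102 bases is present in some (2 of 4) and absent from other long Ehmt2 transcripts. It lies at chr17:35042555-35042656 on the plus strand and is wholly coding (34 codons). Its highest exon number in the 2 transcripts that hold it is 10. The files give only lengths, so the match of the exon to the transcripts rests on that length. The exon is in capitals and 20 intronic bases on each side are in lower case.
Ehmt2 alternative exon: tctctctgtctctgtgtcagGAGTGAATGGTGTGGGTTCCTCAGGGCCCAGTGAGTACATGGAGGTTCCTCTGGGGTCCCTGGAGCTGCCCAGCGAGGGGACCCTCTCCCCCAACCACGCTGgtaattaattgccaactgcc

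Promoter windows from 250 bases before to 50 after the RefSeq start (assembly GRCm38.p6, not the mm9 build of the expression files) were read for all 10 members, which have 14 such windows. They are printed for Trim28 and Cbx1, which were higher in MASC, and for Ehmt2 and Suv39h1, which were lower, so that the pairs can be compared. Capitals mark matches, on either strand, to the GC box GGGCGG, the CCAAT box CCAAT, the E-box CACGTG, the E2F core TTTGGCG or the YY1 core AAGATGG. The windows are chr7:13023902-13024201 on the plus strand, chr11:96788885-96789184 on the plus strand, chr17:34898224-34898523 on the plus strand (the first of 2 starts) and chrX:8074711-8075010 on the minus strand (the first of 2 starts).
Trim28 promoter: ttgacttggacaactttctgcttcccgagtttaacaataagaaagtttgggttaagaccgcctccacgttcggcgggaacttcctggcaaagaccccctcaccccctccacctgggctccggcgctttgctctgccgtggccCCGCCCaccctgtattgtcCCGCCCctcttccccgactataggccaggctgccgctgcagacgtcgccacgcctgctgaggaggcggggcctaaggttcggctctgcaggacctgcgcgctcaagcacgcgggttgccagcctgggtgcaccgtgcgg
Cbx1 promoter: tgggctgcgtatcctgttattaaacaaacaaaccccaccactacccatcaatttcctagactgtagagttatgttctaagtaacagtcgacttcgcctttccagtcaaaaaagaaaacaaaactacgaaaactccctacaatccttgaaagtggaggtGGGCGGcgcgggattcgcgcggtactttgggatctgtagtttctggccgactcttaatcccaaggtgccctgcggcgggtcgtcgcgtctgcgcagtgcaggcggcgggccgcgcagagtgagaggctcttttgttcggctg
Ehmt2 promoter: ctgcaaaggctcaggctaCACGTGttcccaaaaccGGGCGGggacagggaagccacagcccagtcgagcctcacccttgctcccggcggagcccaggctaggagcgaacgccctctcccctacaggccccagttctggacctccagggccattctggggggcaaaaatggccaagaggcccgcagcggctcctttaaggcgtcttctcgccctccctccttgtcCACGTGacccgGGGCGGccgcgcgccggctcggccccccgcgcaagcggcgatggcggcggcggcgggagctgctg
Suv39h1 promoter: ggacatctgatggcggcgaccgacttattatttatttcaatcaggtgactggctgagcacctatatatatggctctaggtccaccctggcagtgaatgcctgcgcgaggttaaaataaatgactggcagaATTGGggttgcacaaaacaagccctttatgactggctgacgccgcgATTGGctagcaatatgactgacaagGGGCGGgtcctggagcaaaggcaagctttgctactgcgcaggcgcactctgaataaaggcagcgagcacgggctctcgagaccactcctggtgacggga

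A GC box was found in 13 of the 14 member windows, covering all 10 genes, and in 35.7% of all 32851 promoter windows. A CCAAT box was found in 4 windows (Atf7ip, Cbx5, Setdb1 and Suv39h1) against 37.4% of all, and an E-box in 3 (1 of Cbx5 and both of Ehmt2) against 7.15%. The E2F core was in 1 window each of Cbx3 and Cbx5 (1.57% of all), where in Cbx5 it overlaps a GC box, and the YY1 core was in 1 window each of Suv39h1 and Suv39h2 (6.34% of all). In the 4 windows shown, Trim28 and Cbx1 hold GC boxes only, Ehmt2 holds 2 E-boxes beside 2 GC boxes, and Suv39h1 holds 2 CCAAT boxes beside 1 GC box. These are matches of letters and say nothing of binding.

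Between MASC and SSC lines, 5 of the 10 members changed, and they moved in opposite directions. Cbx1 and Trim28 were 3.78-fold and 2.88-fold higher in mean FPKM, whereas Suv39h1 and Suv39h2 were 2.67-fold and 2.10-fold lower. Ehmt2 was 2.36-fold lower in FPKM summed over its transcripts and 3.46-fold lower in the transcript that the rule chose, which stands for the gene in the counts below. Setdb1, Atf7ip, Ehmt1, Cbx3 and Cbx5 did not pass the test (limma on log2(FPKM + 1) over the 12 SSC, MASC and ESC lines, Benjamini-Hochberg adjusted over 32661 transcripts). Of all transcripts, 11.4% were called higher and 19.5% lower, beside 2 and 3 of the 10 members. That background includes many transcripts that were hardly expressed, as do the shares of all transcripts given below. Of the 20119 transcripts with at least 1 FPKM in at least 2 samples, 3755 were called higher and 5788 lower, again beside 2 and 3 members. The members' count is therefore not read as an excess. The lines of MASC and SSC did not overlap for 4 members (Cbx1, Trim28, Ehmt2 and Suv39h1), and 25.3% of all transcripts had this property. The median difference of the 10 members was -0.09 on the log2 scale, and that of all transcripts with at least 1 FPKM in at least 2 samples was -0.12. In bulk RNA, fewer cells that express a gene and less of its RNA per cell cannot be told apart.

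**Figure D1:**
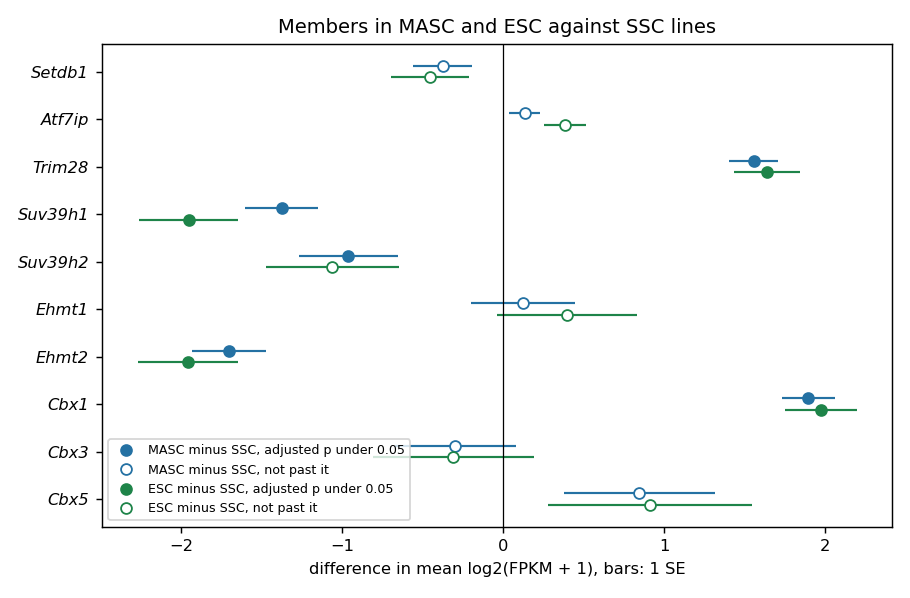
Difference in mean log2(FPKM + 1) of MASC (blue) and ESC (green) lines from SSC lines for the 10 members, with bars of 1 SE and filled points for an adjusted p under 0.05. Cbx1 and Trim28 lie to the right and Ehmt2 and Suv39h1 to the left in both comparisons, with MASC differences of 1.89, 1.56, -1.70 and -1.37.

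Trim28, the scaffold of the SETDB1 arm, rose from SSC to MASC and ESC lines. It stood at 240, 135, 225 and 159 FPKM in SSC.1 to SSC.4, at 510 to 597 in the MASC lines (median 539), and at 606 and 548 in ESC.1 and ESC.2. Every MASC and ESC line was above every SSC line, and Trim28 was the most abundant member in the MASC, ESC and iPS lines. The difference was 1.56 (SE 0.15, adjusted p = 5.21e-05) for MASC and 1.64 (SE 0.20, adjusted p = 0.000451) for ESC lines. Trim28 stood at 492 and 401 FPKM in the iPS lines, 115 and 154 in the HSC samples and 88.7 in MEF.

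Setdb1, the methyltransferase that TRIM28 recruits, did not pass the test. It stood at 40.6, 27.2, 31.3 and 37.3 FPKM in the SSC lines and 17.5 to 31.8 in MASC lines (median 27.9). These groups overlapped, and the difference was -0.38 (SE 0.18, adjusted p = 0.155). With each library scaled to the same total FPKM, which moved the median of all expressed transcripts from -0.12 to -0.36, the Setdb1 difference was -0.69 and passed the test (adjusted p = 0.0308). The ratio of summed Trim28 to summed Setdb1 FPKM was 3.53 to 5.14 in SSC lines and 12.9 to 23.8 in MASC lines, with no overlap, and was 13.9 and 17.3 in iPS lines. Setdb1 was lowest in MEF (6.23 FPKM) and in the HSC samples (7.79 and 10.5). Its transcript of 4660 bases was called lower in iPS than in SSC lines (-1.03, limma adjusted p = 0.00971), at means of 1.84 and 4.83 FPKM. That transcript was not called in MASC (-0.48, adjusted p = 0.0817) or ESC lines (-0.72, adjusted p = 0.0700) against SSC lines.

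Atf7ip encodes the partner that stabilizes SETDB1 in the nucleus. It differed little between SSC and MASC lines, at 16.99 to 20.8 FPKM in SSC and 18.5 to 26.6 in MASC lines, and the difference was 0.13 (SE 0.10, adjusted p = 0.364). This sign turned with scaling to the same total (-0.18). The ESC lines, at 28.0 and 23.4 FPKM, were above every SSC line (0.38, SE 0.13, limma adjusted p = 0.0676). Atf7ip was lower in both iPS lines (14.1 and 13.95 FPKM) than in any SSC, MASC or ESC line.

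The Suv39h pair was highest in SSC lines. Suv39h1 stood at 21.0, 29.1, 24.8 and 23.8 FPKM in SSC.1 to SSC.4 and at 5.84 to 14.4 in MASC lines (median 9.19), with no overlap. It was 6.48 and 4.82 FPKM in ESC lines and 5.91 and 9.37 in iPS lines. The difference from SSC was -1.37 (SE 0.23, adjusted p = 0.00134) for MASC and -1.95 (SE 0.31, adjusted p = 0.00166) for ESC lines. Its other transcript, which is 19 bases shorter and starts further downstream, gave -1.27 (adjusted p = 0.00161) between MASC and SSC.

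Suv39h2 stood at 10.1, 16.7, 7.02 and 11.9 FPKM in SSC.1 to SSC.4 and at 2.93 to 7.67 in MASC lines (median 6.15). SSC.3 was below the highest MASC line, so the groups overlapped. The difference was -0.96 (SE 0.31, adjusted p = 0.0393), the weakest of the 5 calls. It was lost with any 1 of 7 lines left out (SSC.1, SSC.2, SSC.4, MASC.1, MASC.2, MASC.4 or MASC.6, adjusted p from 0.0524 to 0.107) and under quantile normalization (-0.75, adjusted p = 0.116), over a range of 0.000211 to 0.146 across 22 alternatives. The gene also has a transcript annotated as non-coding, whose difference was 0.14 (adjusted p = 0.754), and the gene's summed FPKM gave -0.64 (adjusted p = 0.0643).

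The spread of Suv39h2 within a cell type went with the library balance described above and with the fibroblast markers. Among lines, the AT-poor ones had the highest summed fibroblast markers of their cell type: 301 and 726 FPKM in SSC.1 and SSC.3 against 3.40 and 65.6, 842 and 97.3 in MASC.1 and MASC.2 against 15.7 to 46.2, and 314 in ESC.1 against 55.2. MEF, which is AT-poor too, had Suv39h2 at 0.212 FPKM. The part of feeder cells in this spread was not tested. MASC.1, MASC.2 and ESC.1 are also the only Oct4-GFP lines of their cell types, so balance and strain cannot be told apart there. The Oct4-GFP lines SSC.1 and SSC.2 differ in balance. In the AT-poor libraries Suv39h2 was at 10.1 and 7.02 FPKM in SSC and at 2.94 and 2.93 in MASC lines, and in the others at 16.7 and 11.9 in SSC and 5.95 to 7.67 in MASC lines. Within these sets the MASC minus SSC differences were -1.26 (2 against 2 lines) and -0.98 (4 against 2). With the balance as a covariate, a fit added after seeing the data, the Suv39h2 difference was -1.06 with an SE of 0.12 (adjusted p = 0.000211), and that of ESC from SSC lines was -1.33 (adjusted p = 0.000649).

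**Figure D2:**
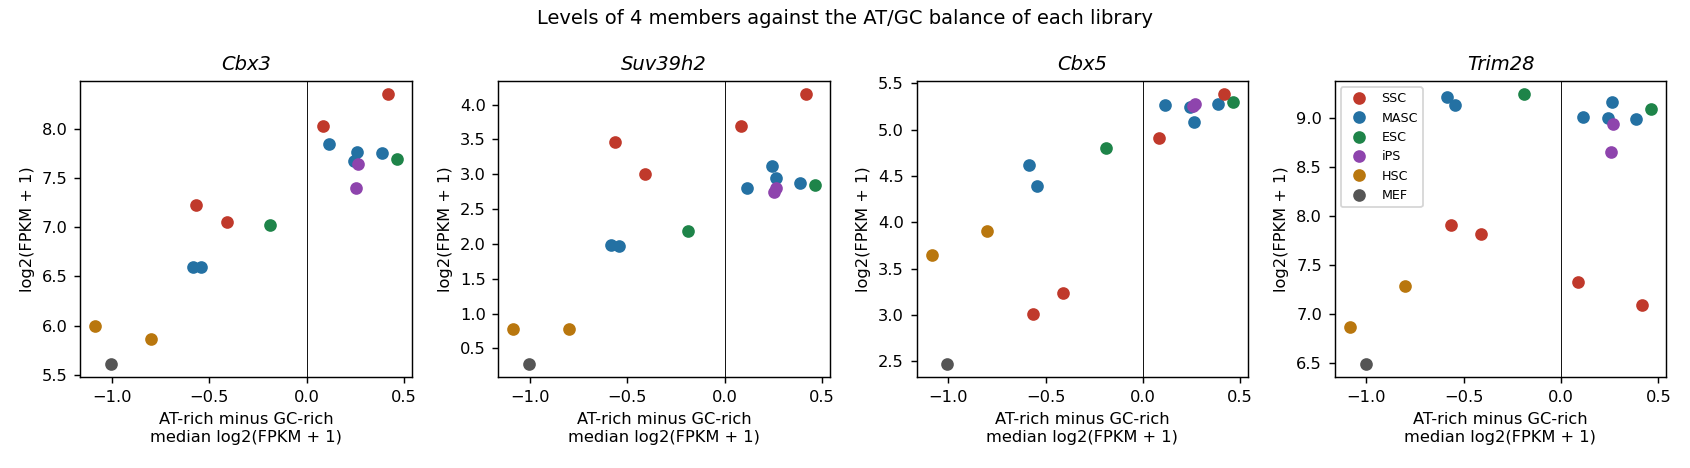
Level of Cbx3, Suv39h2, Cbx5 and Trim28 in log2(FPKM + 1) against the balance of each of 17 libraries (median level of AT-rich minus GC-rich genes), 1 point per sample, coloured by cell type. Cbx3 and Suv39h2 rise to the right within SSC (red) and MASC (blue) lines, with SSC above MASC at like balance, and Trim28 keeps MASC above SSC at either end.

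Of the Ehmt pair, Ehmt2 fell from SSC to MASC and ESC lines. Summed over its 4 transcripts, the gene was at a mean of 121 ± 39.9 FPKM (SD, n = 4) in SSC and 51.5 ± 3.42 (SD, n = 6) in MASC lines, with no overlap and a difference of -1.17 (SE 0.20, adjusted p = 0.00132). The transcript that the rule chose, of 3858 bases, leads the mean over the 17 samples through the SSC lines: in the other 13 samples it averaged 23.6 FPKM, as did the transcript of 3756 bases, which was the higher one in MASC lines (23.6 against 20.6) and HSC samples (31.7 against 27.5). The larger fold of the chosen transcript is therefore tied to that choice. It stood at 104, 54.9, 50.1 and 75.9 FPKM in SSC.1 to SSC.4 and at 17.1 to 26.6 in MASC lines (median 19.5), with 22.0 and 12.9 in ESC lines. No MASC or ESC line reached an SSC line, and the difference was -1.70 (SE 0.23, adjusted p = 0.000407) for MASC and -1.96 (SE 0.31, adjusted p = 0.00176) for ESC lines. The iPS lines (32.2 and 30.1), HSC samples (27.1 and 27.8) and MEF (31.3) lay between. Ehmt1 was at 10.4 to 20.7 FPKM in SSC and 6.56 to 21.3 in MASC lines, with a difference of 0.12 (SE 0.32, adjusted p = 0.874). This sign turned with scaling to the same total (-0.18), with the replicate number as a block (-0.04) and with strain as a block (-0.23). The level also went with library balance (Pearson's r = 0.84 over 12 lines, as deviations from cell type means). Another Ehmt1 transcript, of 4963 bases, was lower in ESC (-1.09, limma adjusted p = 0.0123) and iPS lines (-1.40, adjusted p = 0.000888) than in SSC lines. That of 5107 bases was higher in iPS than in SSC lines (1.59, adjusted p = 0.0353). Neither was called between MASC and SSC lines.

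The 4 transcripts of Ehmt2 were also followed one by one. The pair of transcripts that carry the 102-base exon fell in MASC against SSC lines, with differences of -1.70 (adjusted p = 0.000407) and -1.85 (adjusted p = 0.00024). The pair without it gave differences of -0.05 (adjusted p = 1) and -0.42 (adjusted p = 0.403). Summed, the exon-containing FPKM was 120, 66.5, 61.9 and 97.8 in SSC.1 to SSC.4 and 20.6 to 30.8 in MASC lines, which do not overlap. The FPKM without the exon was 55.7, 12.8, 50.4 and 20.8 in SSC.1 to SSC.4 and 23.6 to 30.9 in MASC lines. No SSC line fell inside that MASC range. The AT-poor SSC.1 and SSC.3 were above every MASC line in both forms. SSC.2 and SSC.4 were above every one with the exon and below every one without it. The -0.05 is for the 3756-base transcript, at 48.8, 10.6, 41.1 and 16.1 FPKM in SSC.1 to SSC.4. In MASC lines that transcript was at 21.2 to 26.6 FPKM. That difference is therefore a mean over SSC lines on opposite sides of the MASC lines.

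Exon-containing transcripts made up 68.2%, 83.8%, 55.1% and 82.5% of Ehmt2 FPKM in SSC.1 to SSC.4 and 40.0% to 53.7% in MASC lines. The means were 72.4% ± 13.5 (SD, n = 4) and 46.6% ± 5.67 (SD, n = 6), a difference of -25.8 percentage points. All 6 MASC lines were below all 4 SSC lines. A two-sided exact permutation test of the 210 arrangements gave p = 0.00476, the smallest it can give, for a measure that was chosen after its values were seen. With 1 line left out in turn the difference was between -31.6 and -22.0 points. The share was 54.5% and 50.5% in ESC, 56.2% and 62.7% in iPS, 45.0% and 48.4% in HSC and 54.1% in MEF, so SSC.3 lay among the other cell types and the 3 other SSC lines above all of them. The share also moved with the library balance: it was lower in SSC.1 and SSC.3 than in SSC.2 and SSC.4, and the MASC difference was -20.4 points within the AT-poor libraries and -33.9 within the others. Shares are Cufflinks estimates from short reads over near-identical transcripts, and how well they separate the forms was not tested.

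**Figure D3:**
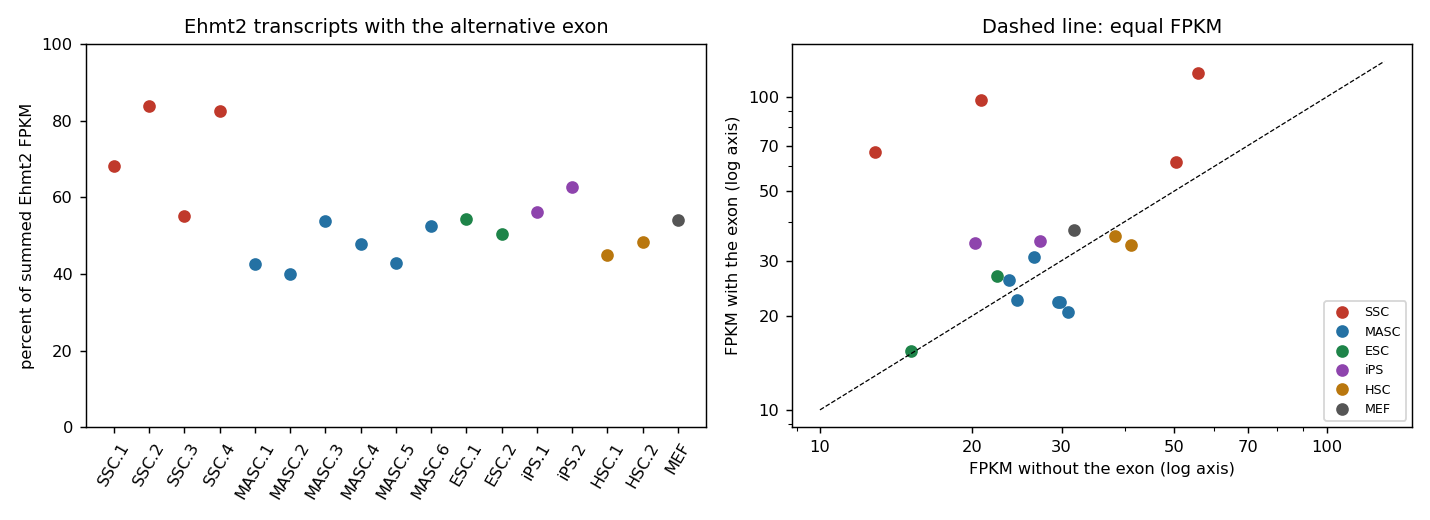
Left, percent of summed Ehmt2 FPKM in the transcripts with the 102-base exon in each of 17 samples, and right, FPKM with against without the exon on log axes with a dashed line of equal FPKM. The 4 SSC lines (red) hold 55.1% to 83.8% and the 6 MASC lines (blue) 40.0% to 53.7%, and the groups separate along the vertical axis of the right panel.

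Among the HP1 genes, Cbx1 passed the test and rose from SSC to MASC and ESC lines. It stood at 31.5, 41.4, 37.2 and 24.8 FPKM in SSC.1 to SSC.4, at 91.5 to 145 in MASC lines (median 136) and at 124 and 143 in ESC lines. The lowest MASC line was above the highest SSC line by more than the whole range of the SSC lines. The difference was 1.89 (SE 0.16, adjusted p = 2.66e-05) for MASC and 1.97 (SE 0.22, adjusted p = 0.000251) for ESC lines. Cbx1 was also high in iPS lines (120 and 89.2 FPKM) and was in the SSC range or just below it in HSC (21.5 and 34.8) and MEF (22.6).

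Cbx3 was the most abundant HP1 transcript in SSC lines, at 149, 325, 132 and 260 FPKM in SSC.1 to SSC.4. It stood at 95.4 to 229 in MASC lines (median 208) and the groups overlapped, with a difference of -0.30 (SE 0.37, adjusted p = 0.636). The low values in each group came from the AT-poor libraries: SSC.1 and SSC.3, MASC.1 and MASC.2, and ESC.1 (129 FPKM, against 205 in ESC.2). These 5 also had the highest fibroblast markers, as given for Suv39h2, and Cbx3 was at 47.9 FPKM in MEF. The part of feeder cells was not tested here either, and MASC.1, MASC.2 and ESC.1 are the Oct4-GFP lines of their cell types. Within the AT-poor libraries the MASC minus SSC difference was -0.55 and within the others -0.43. With the balance as a covariate it was -0.42 (SE 0.11, adjusted p = 0.0133) for MASC and -0.64 (adjusted p = 0.0113) for ESC lines, with the same caution that this fit was added after the data were seen. Reads that map to more than 1 place were excluded, and Cbx3 has processed pseudogene copies, so its level is uncertain.

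Cbx5 varied most within SSC lines, at 7.08, 40.6, 8.42 and 29.1 FPKM, and stood at 20.0 to 37.7 in MASC lines (median 35.0). The difference was 0.85 (SE 0.47, adjusted p = 0.220). SSC.1 and SSC.3 were below every MASC, ESC and iPS line, and SSC.2 was above every one of them. Within the AT-poor libraries the MASC difference was 1.38 and within the others 0.07.

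The make-up of HP1 transcripts differed in SSC lines. Cbx1 made up 7.71% to 20.6% of the summed HP1 FPKM in SSC lines and 34.5% to 49.2% in MASC lines, and Cbx3 made up 73.0% to 80.8% and 40.6% to 54.7%. Neither pair of ranges overlapped. The shares of Cbx5 did (4.78% to 11.6% and 10.2% to 13.5%), as did the summed HP1 FPKM, at 181 to 414 in SSC and 216 to 419 in MASC lines. The ratio of Cbx1 to Cbx3 was 0.0953 to 0.282 in SSC, 0.633 to 1.21 in MASC, 0.695 and 0.958 in ESC and 0.532 and 0.605 in iPS lines. These shares and ratios are descriptions within a library and were not tested.

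**Figure D4:**
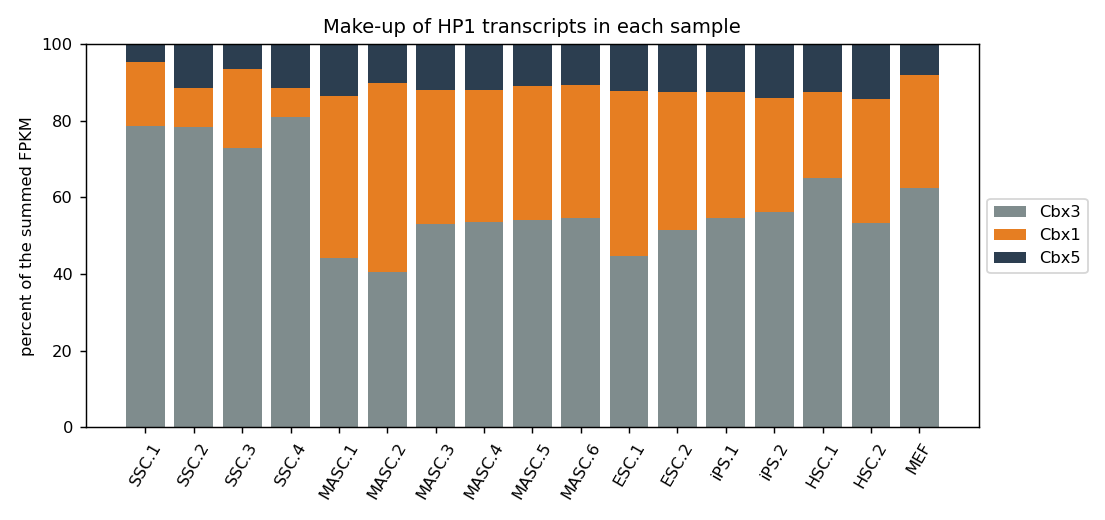
Percent of the summed FPKM of Cbx3, Cbx1 and Cbx5 in each of 17 samples, as stacked bars that add to 100. The Cbx1 segment is thinnest in the 4 SSC lines (7.71% to 20.6%) and the Cbx3 segment is tallest there (73.0% to 80.8%).

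The 5 called members were also compared within a strain. Between Oct4-GFP lines (2 MASC against 2 SSC) the differences were 1.68 for Trim28, 1.49 for Cbx1, -1.97 for Ehmt2, -1.49 for Suv39h1 and -1.83 for Suv39h2. Between 129mix lines (2 MASC against 1 SSC) they were 1.68, 2.41, -1.70, -1.67 and -0.69. The lines did not overlap in either strain for these 5, nor for Setdb1 (-0.75 and -0.24) and Cbx3 (-1.19 and -0.32), which were not called over all lines. With so few lines 39.5% of all transcripts had this property. Among the Oct4-GFP lines both MASC lines and SSC.1 are AT-poor and SSC.2 is not, so that comparison is mixed with library balance. Ehmt1 had values of -0.70 and 0.42 in the 2 strains, and the MASC and SSC lines of Oct4-GFP overlapped for it.

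Between ESC and MASC lines no member was called (adjusted p = 1 for all 10, limma), none had an unadjusted p under 0.05, and none was called in the fit with a trended variance. The background was 0.0276% of transcripts higher and 0.00306% lower. The differences ran from -0.58 for Suv39h1 (SE 0.29) to 0.27 for Ehmt1 (SE 0.41), and with 2 ESC lines the SE reached 0.60 for Cbx5, so differences of that size were not detectable. ESC against SSC lines called 2 members higher (Cbx1 and Trim28, background 7.67%) and 2 lower (Ehmt2 and Suv39h1, background 13.8%), and it shares its SSC lines with the MASC comparison. Suv39h2 was -1.06 there (SE 0.41, adjusted p = 0.103).

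iPS lines were compared in a fit over all 17 samples. iPS against SSC lines called Cbx1 (1.62, SE 0.25) and Trim28 (1.26, SE 0.21) higher, beside 8.93% of transcripts, and Suv39h1 (-1.59, SE 0.30), Ehmt2 (-1.11, SE 0.28) and Atf7ip (-0.44, SE 0.12) lower, beside 15.6%. The adjusted p was 0.0131 for Ehmt2 and 0.0222 for Atf7ip, and both calls were lost with either iPS line left out (adjusted p of 0.0726 and 0.0938, and of 0.115 and 0.121), where the lone iPS line is assumed to vary like the other groups. Against SSC the filter on low values also ended the Atf7ip call, and with quantile normalization 2 members were called lower in place of 3. iPS against MASC called Atf7ip lower (-0.57, SE 0.12, adjusted p = 0.0313) beside 0.873% of transcripts, and no member higher beside 1.09%, with 2 members under an unadjusted p of 0.05. That call was lost without MASC.1, MASC.4, iPS.1 or iPS.2 (adjusted p of 0.0525, 0.0621, 0.220 and 0.226), with the filter on low values and with scaling to the same total.

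**Figure D5:**
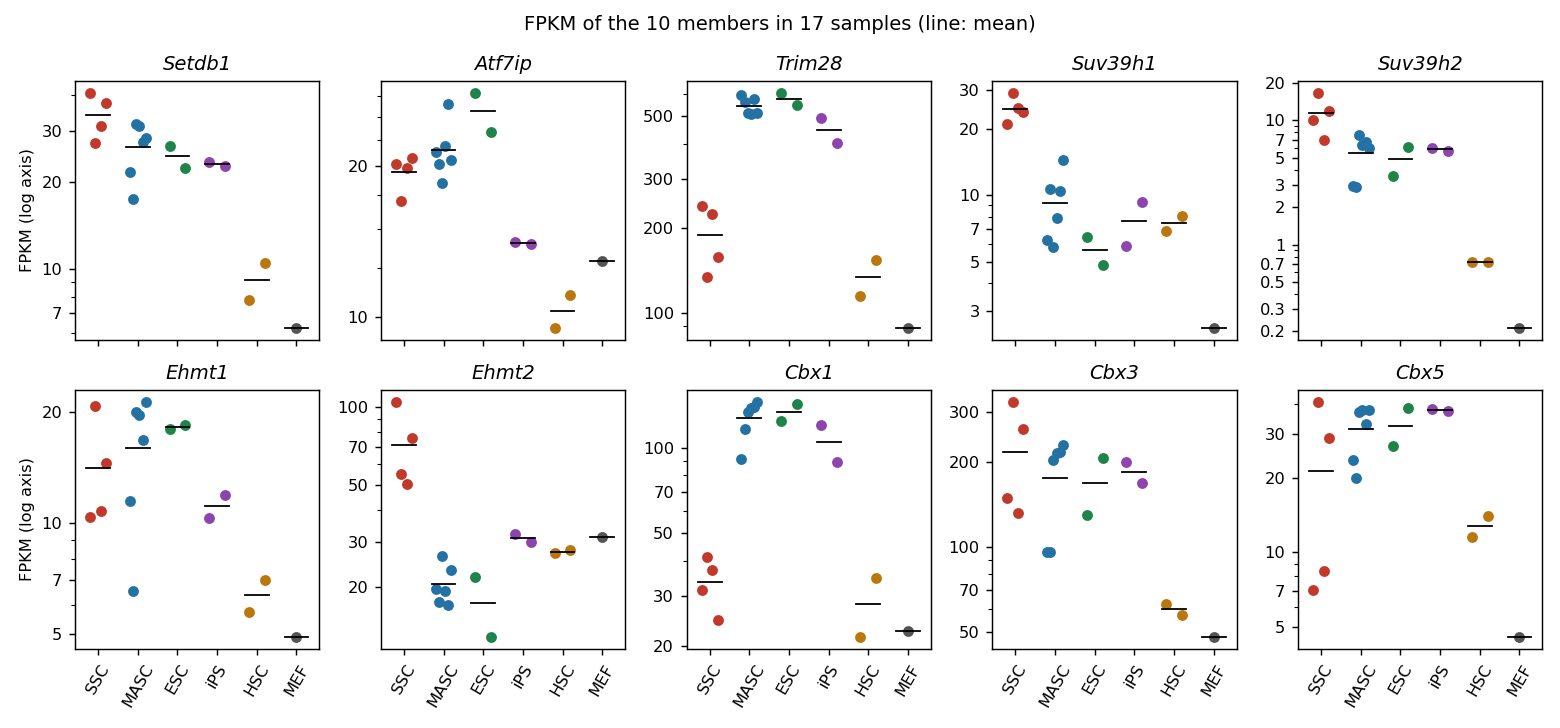
FPKM of the 10 members on log axes in 17 samples grouped by cell type, 1 point per sample with a line at the mean. Trim28 and Cbx1 are high in MASC, ESC and iPS samples, Suv39h1, Suv39h2 and Ehmt2 are highest in SSC, and 9 of the 10 members are lowest in HSC or MEF.

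HSC samples were low in most members. Against SSC lines 6 were lower and none higher, beside 20.7% and 12.7% of transcripts: Suv39h2 (-2.79, SE 0.38), Setdb1 (-1.79, SE 0.23), Cbx3 (-1.74, SE 0.46), Suv39h1 (-1.59, SE 0.30), Ehmt2 (-1.29, SE 0.28) and Atf7ip (-0.86, SE 0.12). Against MASC lines 7 were lower and none higher, beside 16.8% and 14.8%: Cbx1 (-2.16, SE 0.23), Trim28 (-2.02, SE 0.19), Suv39h2 (-1.83, SE 0.35), Cbx3 (-1.44, SE 0.43), Setdb1 (-1.41, SE 0.22), Ehmt1 (-1.11, SE 0.37) and Atf7ip (-0.99, SE 0.12). The 2 comparisons share the HSC samples. The Cbx3 calls were lost with either HSC sample left out (adjusted p of 0.0505 and 0.0691 against SSC, 0.0897 and 0.133 against MASC), and the Ehmt1 call with either HSC sample (0.205 and 0.116) or any of 7 other samples left out. Ehmt2 against SSC was not called on summed FPKM (-0.64, adjusted p = 0.0583). The counts above rest on the chosen transcripts. The other Suv39h1 transcript, the larger one in HSC samples (means of 13.8 against 7.48 FPKM), gave -0.23 against SSC lines (limma adjusted p = 0.617). Against MASC lines it was called higher (1.05, adjusted p = 0.00891), as was the Ehmt2 transcript of 4022 bases (0.93, adjusted p = 0.0244). Cbx5 was not called in its chosen transcript (-1.20 against MASC, limma adjusted p = 0.119). Its transcripts of 8902 and 8802 bases, both under 1 FPKM in HSC samples, were lower there than in MASC lines (-1.94 and -1.37, adjusted p = 0.00233 and 0.0119). Against SSC lines only the first was called (-1.48, adjusted p = 0.0152). Proliferation genes were lower too, 7 of 12 called against MASC lines, the mast cell markers were high as given above, and both HSC libraries had the most AT-poor balance (-1.09 and -0.80) beside MEF (-1.004). The part of each in these differences was not tested.

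Suv39h2 had the widest span of all members over cell types, from a mean of 11.4 ± 4.05 FPKM (SD, n = 4) in SSC to 0.718 and 0.722 in the HSC samples and 0.212 in MEF. In its order SSC lay above iPS, MASC and ESC, whose neighbours in the order overlapped, and these lay above HSC and MEF. The chosen Suv39h1 transcript followed SSC, MASC, iPS, HSC, ESC and MEF, and MASC, iPS and HSC overlapped. The other Suv39h1 transcript had another order. Its means were 16.9 FPKM in SSC, 13.8 in HSC, 6.30 in MASC, 5.64 in ESC, 4.79 in MEF and 4.43 in iPS. For Trim28 the order was ESC, MASC, iPS, SSC, HSC and MEF, in which ESC and MASC overlapped and SSC and HSC overlapped. For Cbx1 only the step from iPS to SSC was free of overlap. The genes most like Suv39h2 over 17 samples, by Pearson's r on log2(FPKM + 1) among 9497 other genes with a mean of at least 5 FPKM, were Oxsr1 (0.98), Gtf2e2 (0.98) and Ddx10 (0.98). Those most like Suv39h1 were Hmgb3 (0.94), Pbx2 (0.92) and Socs7 (0.91), and those most like Cbx5 were Rnf168 (0.97), Dek (0.96) and Eif4a2 (0.95). These points share library balance and cell type.

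Of 16 further H3K9 writers and partners, 3 rose and 6 fell from SSC to MASC lines, with a median difference of -0.27, beside the 11.4% higher and 19.5% lower of all transcripts. Zfp57, a KRAB zinc-finger protein that brings TRIM28 to imprinted regions, was at a mean of 4.71 FPKM in SSC and 95.8 in MASC lines (4.08, SE 0.23, adjusted p = 1.91e-06), and Trim24, a relative of Trim28, at 5.48 and 16.0 (1.43, SE 0.21, adjusted p = 0.000675). Setdb2, a relative of Setdb1, was lower (15.1 and 4.30 FPKM, -1.61, SE 0.18, adjusted p = 0.000138), as was Cdyl, which binds methylated H3K9 (16.8 and 6.40 FPKM, -1.30, SE 0.26, adjusted p = 0.0043).

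Of 10 H3K9 demethylases measured, 2 were higher and 2 lower, with a median of -0.21. These shares are near the 11.4% and 19.5% of all transcripts. Kdm4c and Kdm4a, which remove the trimethyl form, rose (2.21, SE 0.20, and 0.62, SE 0.11), and Phf8 and Kdm3b, which act on lower methylation states, fell (-0.78, SE 0.12, and -0.34, SE 0.12). Kdm4c was at a mean of 2.76 FPKM in SSC and 16.5 in MASC lines.

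Of 14 other heterochromatin factors 4 were higher and 2 lower, with a median of 0.53, beside 11.4% and 19.5% of all transcripts. The largest rises were in Lmnb1, which encodes lamin B1 of the nuclear lamina (33.5 to 183 FPKM, 2.41, SE 0.09), and Smarcad1, a chromatin remodeller that works with TRIM28 (1.76, SE 0.42). Lbr, the lamin B receptor that binds HP1, fell (-0.62, SE 0.17).

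Zscan4c, Zscan4d and Zscan4f, near-identical genes of the 2-cell embryo program that is kept low by these silencers in ESC, were at means of 0.199, 0.0909 and 0.167 FPKM in SSC and 16.3, 11.5 and 21.4 in MASC lines. Of the 6 measured genes of that program, 2 (Tcstv1 and Tcstv3) were listed at 0 in every sample and could not be called. Of the other 4 none was called by limma (adjusted p from 0.0507 for Zscan4f), and 3 had an unadjusted p under 0.05. Of 12 proliferation genes 4 were higher in MASC lines and none lower, with a median of 0.41, beside 11.4% and 19.5% of all transcripts. Cdk1 (1.83, SE 0.27) and Pcna (1.28, SE 0.22) led them. Cbx1 and Trim28 moved in the same direction, and the part of proliferation in their values was not tested. Between ESC and MASC lines no gene of these lists was called, and 1 of the writers had an unadjusted p under 0.05.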

How the data were processed

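Per the labels, the study's methods and the file headers, the authors aligned RNA-seq reads to mm9 with TopHat (TopHat2 2.0.11 per the submitters' processing notes), left out duplicate reads and reads mapping to more than 1 place, and ran Cufflinks with upper-quartile and GC normalization. The deposited FPKM values per RefSeq transcript were used as log2(FPKM + 1) with no filter and no further normalization. The deposited coverage, a signal in reads per base, was used to state depth only. Of 33262 entries per file, 601 further loci of a transcript were left out. Replicates are separate lines or samples by label. Reads are not counts here, and no counts were inferred.

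In R 4.3.3, linear models were fitted with limma 3.58.1 (lmFit, then eBayes with no trend) over the 12 SSC, MASC and ESC lines, and over all 17 samples for iPS and HSC, with Benjamini-Hochberg adjustment over all 32661 transcripts and a threshold of 0.05. MEF, with 1 sample, has values only. The script was tested on simulated data. The members and gene lists were chosen with earlier results of these data known, and no p-value was adjusted over a list. Named genes are all members, the 2 called genes per list with the largest MASC difference in each direction, and the 3 genes most like each of the 3 members with the widest range. One gene that this rule names is not reported here. The Zscan4 genes were named after their values were seen. The GC content of 1 GENCODE vM1 transcript per gene was matched by symbol for 94.4% of 8897 protein-coding genes with a mean of at least 5 FPKM. Promoter sequences are from RefSeq (GRCm38.p6) and the exon sequence is from NCBIM37 (mm9). Python 3.11 was used for the rest.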

Additional observations from a re-analysis of the deposited data

How the results depend on the processing

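Of 90 member results under 9 other ways to process or fit MASC minus SSC, 82 kept direction and side of the threshold, 3 lost the call (all Suv39h2: quantile normalization -0.75, replicate block -1.09, FPKM summed per gene -0.64), 1 gained it (Setdb1 with scaling to the same total, -0.69), and 4 uncalled values changed sign (Atf7ip -0.18 and Ehmt1 -0.18 with that scaling, Ehmt1 -0.039 with the replicate block and -0.23 with the strain block). For ESC minus SSC 86 of 90 were kept and 4 gained a call (Atf7ip with the fit over all samples, quantile normalization and the replicate block, and Suv39h2 with the strain block), and Atf7ip was also called without MASC.5 (adjusted p = 0.0259, over all samples 0.0454). Cbx3 in ESC minus SSC ranged from -0.64 to 0.024 with 1 line left out, the positive value without ESC.1. The cause of these changes was not tested.

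Equal replicate numbers did not pair MASC and SSC lines: correlations of deviations from the group means were 0.18, -0.23, -0.22 and 0.14 for numbers 1 to 4, with a mean of -0.03 against 0.00 for other pairs. The replicate block gave 5945 called transcripts in MASC minus SSC against 10099, 3377 against 7000 in ESC minus SSC and 2 against 10 in ESC minus MASC. It called 4 members in place of 5 and 5 in place of 4 in the first and second.

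The threshold of the study (log2 difference of at least 2, raw p under 0.05) gave 0 members in MASC minus SSC and 0 in ESC minus SSC, and 1311, 1471 and 48 transcripts in MASC minus SSC, ESC minus SSC and ESC minus MASC. A minimum log2 difference of 1 beside the adjusted p gave 5109, 4479 and 6. In ESC minus MASC the filter on low values gave 6 and a pseudocount of 0.1 gave 17. With 1 line left out the calls ranged from 7 to 108 in ESC minus MASC and from 4149 to 7372 in ESC minus SSC, and members called from 0 to 1 in iPS minus MASC and from 3 to 6 in iPS minus SSC. In iPS minus MASC 0 members were called with scaling to the same total and 0 with the filter. MASC minus SSC calls were 3739 higher and 6360 lower, 2642 and 8363 with scaling to the same total, and 4295 and 5108 with quantile normalization, which set the median of expressed transcripts at 0. Depth limits Suv39h2 in HSC and MEF, which is under 1 FPKM.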
